A study of Zea mays with 18 samples.

Results

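Roots of the maize (Zea mays L.) inbred line Lo5 after 1 d of growth in a nutrient solution without nitrogen (N) were compared with Lo5 roots at 0 d, immediately before that solution was given. The 6 samples concerned, 3 titled Lo5 1 d and 3 titled Lo5 0 d, were chosen by their titles among the 18 arrays of a series that holds Lo5 and a second inbred line, T250, at 0, 1 and 4 d. The study describes Lo5 as the line that uses N efficiently and T250 as the one that does so poorly. Seeds of both lines had germinated in the dark, and the seedlings had then stood in a CaSO4 solution, so that the 0 d roots had not been supplied with N either. The solution given from 0 d on held P, K, Mg, S and micronutrients but no N. No array of roots supplied with N at 1 d was analysed here, so the lack of N, the supply of these other nutrients and 1 d of growth cannot be told apart in the comparison. Each sample was a pool of roots from 3 seedlings, and the 3 replicates of a group came from independent growth experiments. Each RNA was labelled with 1 dye and hybridised to 1 custom Agilent array with 39372 maize transcript probes. Every level below is the log2 signal of a probe minus the 75th percentile of its own array, so a level of 0 is the signal at that percentile, and a log2 ratio is the mean level at 1 d minus the mean level at 0 d. Because each probe has its own brightness, levels were compared between arrays for the same probe only.

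Maize roots take up nitrate through transporters of the NRT1 and NRT2 families and ammonium through AMT transporters. Nitrate is reduced to nitrite and ammonium, ammonium is built into glutamine by glutamine synthetase, and asparagine synthetase passes the amide group on to asparagine, a common form in which plants store and move N. Sulfate is assimilated through adenosine-5'-phosphosulfate (APS) reductase to cysteine, so that both routes meet in the amino acids. Phosphate status is read in plants by proteins with an SPX domain, which bind inositol pyrophosphates and hold back the factors that drive genes of phosphate starvation.

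One of the 6 arrays did not resemble its line. A scale was made from the 2306 probes that differed by a log2 ratio of at least 3 between Lo5 and T250 at 0 d, on which the mean of the T250 0 d arrays is 0 and the mean of the Lo5 0 d arrays is 1. Lo5 1 d replicate 3 lay at 0.0948 on it, within the span of the 9 T250 arrays (-0.0327 to 0.146), while the other 8 Lo5 arrays lay between 0.930 and 1.03. Over 15175 probes that were bright and unmarked on every array, Lo5 1 d replicate 3 correlated with the Lo5 0 d arrays at r = 0.816 to 0.873 and with the T250 arrays of 0 and 1 d at r = 0.905 to 0.932. Lo5 1 d replicates 1 and 2 correlated with the Lo5 0 d arrays at r = 0.906 to 0.969. The array is therefore called the one labelled Lo5 1 d replicate 3, and the results are given with and without it, as far as both could be fitted. When it is left out, written below as without replicate 3, the 1 d group holds 2 arrays.

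**Figure D1:**
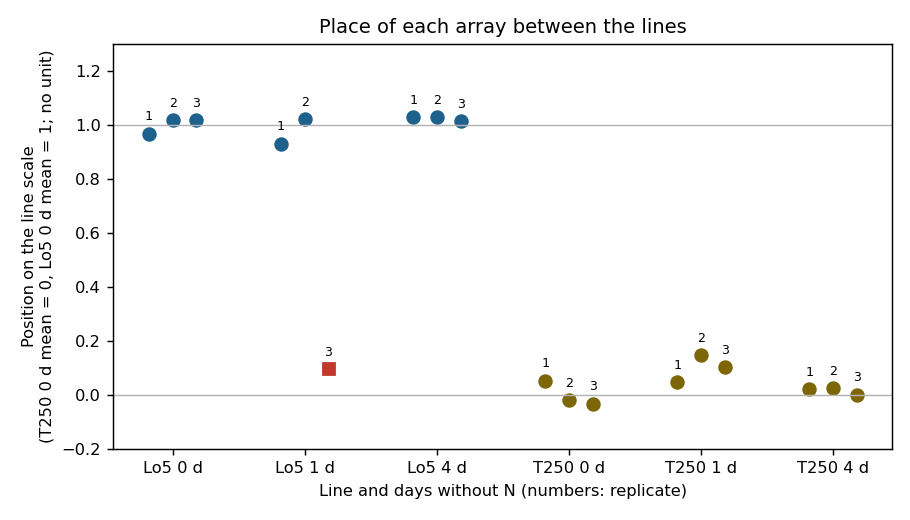
Place of each of the 18 arrays on the scale between the lines (vertical axis, no unit; T250 0 d mean = 0, Lo5 0 d mean = 1), by line and days without N (horizontal axis), with the replicate number above each point. Lo5 1 d replicate 3, the red square at 0.0948, lies among the T250 arrays, and the other 8 Lo5 arrays lie between 0.930 and 1.03.

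Of the 2 transcripts that served the study as references in real-time RT-PCR, one set this array apart and the other did not. EF1A (GRMZM2G153541_T01), a translation elongation factor, had levels of 4.39, 4.73 and 5.04 on the Lo5 1 d arrays, against 4.12 (marked), 4.32 and 5.03 on the Lo5 0 d arrays, and the groups overlapped, with a log2 ratio of 0.05 (SE 0.30). The polyubiquitin transcript MUB6 (GRMZM2G118637_T01) had levels of 3.27, 1.55 and 6.26 on Lo5 1 d replicates 1, 2 and 3, against 3.24, 1.52 and 1.85 on the Lo5 0 d arrays. The 6 T250 arrays of 0 and 1 d had MUB6 levels between 6.07 and 6.68, a range that includes the array labelled Lo5 1 d replicate 3 and none of the other Lo5 arrays named here. With all arrays MUB6 had a log2 ratio of 1.49 (SE 0.83), and without replicate 3 it had 0.21 (SE 0.55), neither past the threshold defined below, while leaving out Lo5 1 d replicate 2 instead gave 2.57 and a call.

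The 6 arrays had between 29561 and 30423 probes well above background, 4.88 to 9.13% of their spots were marked as non-uniform or as outliers, and no spot was saturated. Of 11 root-associated transcripts with a RefSeq name, 7 were well above background on all 6 arrays, among them the iron-phytosiderophore transporter ys1 and the root hair gene rth3, and 2, ysl17 and ZmCASP1, on none. Their summed signal, in units of the array's 75th percentile, was 15.3 to 37.3 on the 1 d arrays, against 31.7 to 33.8 on the 0 d arrays. Of 16 transcripts of the photosynthetic apparatus, 4 were well above background on all 6 arrays and 5 on none, with sums of 0.628 to 1.05 at 1 d, against 0.661 to 0.819 at 0 d. Of 35 seed reserve transcripts, 13 were so on all 6 and 15 on none, with sums of 22.4 to 46.3 at 1 d, against 26.5 to 41.0 at 0 d. The array signals cannot tell fewer cells of a type from less RNA per cell. The 3 pairs of equal replicate number each lay on a slide of their own, so a replicate pair and a slide cannot be told apart here. The slide of replicate 1 was scanned on another date than those of replicates 2 and 3, so replicate 1 and its scan date cannot be told apart either.

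The test was limma across all 6 groups of the series. Following the study's methods, a transcript was called past the methods' threshold at an unadjusted p of at most 0.01 if its log2 ratio was 1 or more in size. Of 28042 transcripts tested with all 6 arrays, 56 were higher and 123 lower at 1 d than at 0 d past it, which is 0.638% of those tested (0.2% higher and 0.439% lower). Without replicate 3, 27888 transcripts could be tested, and 52 were higher and 78 lower, or 0.466% (0.186% higher and 0.28% lower). These counts have to be read against the number of transcripts tested: an unadjusted p of at most 0.05 was reached by 1169 transcripts, 4.17% of all, with all arrays, and by 820, 2.94%, without that array, and one of at most 0.01, whatever the size of the ratio, by 222 and 164. After Benjamini-Hochberg adjustment over all transcripts, limma left 3 calls at an adjusted p of at most 0.05 with all arrays (0.0107%) and 0 without that array (0%), where the lowest adjusted p was 1.00. The methods' own t-test, on the same values, passed 27 transcripts with all arrays and 24 without, and 0 after adjustment either way.

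The counts depended on which arrays were in the 1 d group. Leaving out Lo5 1 d replicate 1 gave 636 transcripts past the methods' threshold, leaving out Lo5 1 d replicate 2 gave 867, and leaving out Lo5 0 d replicate 1 gave 118. After adjustment the first of these settings gave 22 calls and the second 45, and both kept the doubtful array as 1 of 2 arrays at 1 d. When that array was left out too, omitting Lo5 1 d replicate 1 gave 305 transcripts, and leaving out Lo5 1 d replicate 2 gave 765, each from 1 remaining array at 1 d, whose spread was taken to be that of the other groups. The share of higher transcripts moved with the background correction: after normexp correction, 95 were higher and 66 lower with all arrays, and 34 higher and 29 lower without replicate 3.

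The 3 transcripts past the adjusted threshold rested on that array alone. GRMZM2G177384_T01 had levels of 2.62, 3.08 and -8.48 on Lo5 1 d replicates 1, 2 and 3, against 3.43, 3.31 and 2.60 at Lo5 0 d, and the spots of replicates 1 and 2 at 1 d and of replicates 1 and 3 at 0 d were marked and left out of the fit. The log2 ratio of -11.79 (limma, adjusted p = 0.00112) thus set 1 spot against 1 spot. GRMZM2G014716_T01 (log2 ratio -7.28, adjusted p = 0.0106) likewise had 1 unmarked spot on each side, and GRMZM2G126601_T01 (log2 ratio -7.88, adjusted p = 0.0130) had 1 at 1 d and 2 at 0 d. The 1 d spots of GRMZM2G177384_T01 and GRMZM2G126601_T01 that entered the fit were not well above background, so the size of these ratios does not rest on a measured level at 1 d. In all 3 the level of the array labelled Lo5 1 d replicate 3 (-8.48, -3.67 and -8.38) lay close to the T250 0 d and 1 d arrays, which spanned -9.10 to -7.15 for GRMZM2G177384_T01, -4.22 to -3.14 for GRMZM2G014716_T01 and -9.25 to -7.55 for GRMZM2G126601_T01. None could be tested without that array, and none passed the adjusted threshold when marked spots were kept or when at least 2 unmarked spots were asked of each group. With the replicate number as a block, 1 adjusted call was left of the 3.

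Past the methods' threshold both ways, and in the same direction, were 59 of the 27528 transcripts tested both ways (0.214%), 27 higher and 32 lower at 1 d. A further 120 passed with all arrays only, 29 of which belong to the probes that set the lines apart and 28 of which could not be tested without that array. A further 71 passed only without it. Of all the calls, 31 with all arrays and 14 without replicate 3 had fewer than 2 unmarked spots in at least 1 group. Of the 59, 56 had spots at 1 d and 0 d that did not overlap, as did 5.84% of all tested transcripts with 6 unmarked spots. Within each slide the difference had the direction of the call wherever both spots were unmarked, in 58 of 58 transcripts on the slide of replicate 1, 55 of 55 on that of replicate 2 and 47 of 47 on that of replicate 3, a direction that the calls themselves largely fix. The median size of the log2 difference was 2.28, 1.104 and 1.86 on these slides, so replicate 2 differed least between 1 d and 0 d. The calls of the 59 depended on how the spread was estimated and on single arrays. Past the threshold with all arrays and without replicate 3 were still 21 and 22 of them in a fit on the 2 groups alone, 9 and 5 with the methods' t-test and 15 and 9 after normexp. Asking for at least 2 unmarked spots in each group left 56 and 53. Without Lo5 1 d replicate 1 these numbers were 28 and 7, and without Lo5 0 d replicate 1 they were 32 and 26. No adjusted p among the 59 reached the threshold, and the named changes below are called on the methods' threshold.

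**Figure D2:**
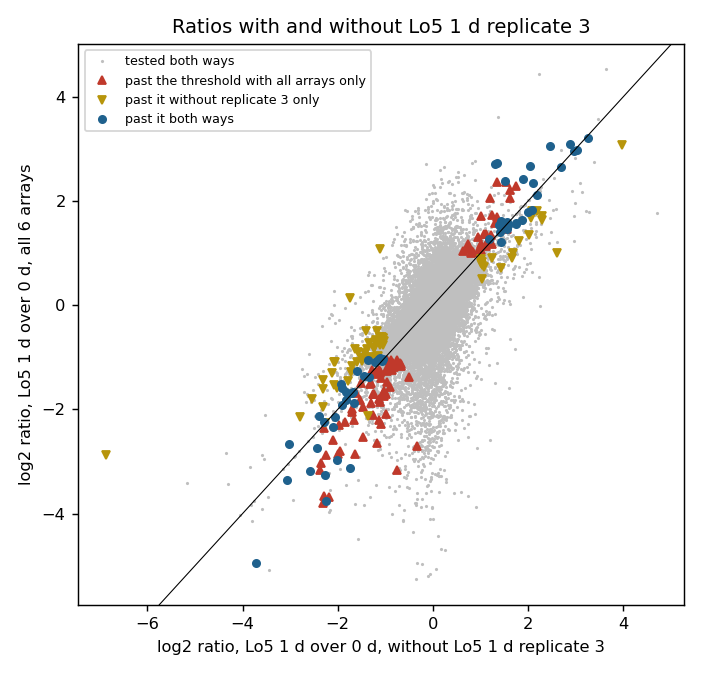
Log2 ratio of Lo5 1 d over Lo5 0 d with all 6 arrays (vertical axis) against the ratio without Lo5 1 d replicate 3 (horizontal axis), one point per transcript, with the line of equal ratios. Blue circles are the 59 transcripts past the methods' threshold both ways, red triangles those past it with all arrays only and yellow triangles those past it without replicate 3 only. Transcripts that could not be tested without replicate 3 are not drawn.

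Among the genes of N use, the transcript named asparagine synthetase 2 was lower and that of a lysine histidine transporter was higher after 1 d, both with and without the doubtful array. Asparagine synthetase 2 (GRMZM2G078472_T01) had levels of 1.64, 3.96 and -1.77 on Lo5 1 d replicates 1, 2 and 3, against 5.34, 5.06 and 4.71 at Lo5 0 d. All 1 d spots lay below all 0 d spots, and the array labelled Lo5 1 d replicate 3 lay farthest down. The log2 ratio was -3.76 (SE 1.05, limma, adjusted p = 0.968) with all arrays and -2.24 (SE 0.69, adjusted p = 1.00) without replicate 3. Leaving out Lo5 0 d replicate 1 (-3.61) or replicate 2 (-3.75) ended the call with all arrays, and so did a fit on the 2 groups alone. In T250, asparagine synthetase 2 averaged 0.25 at 1 d, against 3.68 on the single unmarked T250 0 d array, a log2 ratio of -3.43 (SE 0.87). A difference between the lines was not detectable at this spread (Lo5 difference minus T250 difference 1.19, SE 1.12, adjusted p = 1.00, without replicate 3). The transcripts that RefSeq names AsnS1 and AsnS2, which are others than this one, had log2 ratios of 0.36 (SE 0.23) and -0.04 (SE 0.81) without replicate 3 and of 0.43 (SE 0.21) and 0.27 (SE 0.72) with all arrays, neither past the threshold.

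Lysine histidine transporter 1 (GRMZM2G127294_T01), whose Arabidopsis counterpart carries amino acids into root and leaf cells, had levels of -1.60, -2.60 and -2.23 at Lo5 1 d, against -4.32, -4.96 and -6.09 at Lo5 0 d. The groups did not overlap, and here replicate 3 lay between the other 1 d arrays. T250 levels were -2.48, -2.51 and -0.26 (marked) at 0 d and -1.29, -3.52 and -3.86 at 1 d. The level of replicate 3 thus lay within the T250 span as well. The log2 ratio was 2.98 (SE 0.70, limma, adjusted p = 0.934) with all arrays and 3.03 (SE 0.81, adjusted p = 1.00) without it. It stayed past the methods' threshold in all 17 alternative settings, the methods' t-test and every omission of 1 array included, with log2 ratios from 1.62 to 3.38. These settings started from all arrays, and only the omission of replicate 3 left the doubtful array out. T250 roots gave a log2 ratio of -0.40 (SE 0.81), and the Lo5 difference minus the T250 difference was 3.42 (SE 1.15), which did not pass adjustment (adjusted p = 1.00). At Lo5 4 d, compared with the same 0 d arrays, the log2 ratio was 3.86 (SE 0.73). Of the 8 amino acid transporters tested it was the only one past the threshold, and the other 7 had log2 ratios between -1.99 and 0.41 without the doubtful array and between -2.24 and 1.37 with it. Over all transcripts tested, 0.466% passed without that array and 0.638% with it. All 8 were listed by the study's own descriptions of transcripts that it had called on these arrays. This count is therefore not independent of the result and does not survey the family.

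The nitrate transporters did not move together. Nitrate transporter 1.5 (GRMZM2G044851_T01), which loads nitrate into the xylem in Arabidopsis, had levels of 2.30, 3.55 and 4.23 at Lo5 1 d, against 0.49, 2.31 and 1.08 at Lo5 0 d. It was higher at 1 d within each of the 3 slides, by 1.81, 1.24 and 3.15, but the spots of replicate 1 at 1 d and of replicate 2 at 0 d were alike and the groups overlapped. The log2 ratio of 2.07 (SE 0.57, limma, adjusted p = 0.968) was past the methods' threshold with all arrays, and that of 1.63 (SE 0.60) without replicate 3 was not. Omitting Lo5 0 d replicate 1 (1.67) or replicate 3 (1.96), fitting the 2 groups alone or correcting by normexp (1.76) ended the call too. In T250 the ratio was 3.16 (SE 0.54, adjusted p = 0.0788), with levels of 3.72, 3.82 and 3.89 at 1 d, against 0.94, 0.65 and 0.36 at 0 d, and the Lo5 difference minus the T250 difference was -1.53 (SE 0.81, adjusted p = 1.00).

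NRT2.2 (GRMZM2G010251_T01), a high-affinity nitrate transporter, had levels of -1.95, 2.64 and -2.39 at Lo5 1 d, against 0.81, 2.93 and 1.39 at Lo5 0 d. Replicate 2 stayed near its 0 d level while the other arrays were lower, and the groups overlapped. As the 0 d spots of replicates 1 and 2 were marked, the fit had 1 spot at 0 d, and the log2 ratio was -1.95 (SE 1.92) with all arrays and -1.04 (SE 1.94) without replicate 3, with no call and a wide error. NRT1.2 (GRMZM5G811593_T01), of the NRT1 family, was lower past the threshold without replicate 3 only (-1.19, SE 0.39, and -0.99, SE 0.35, with all arrays). Of the 7 transcripts of nitrate transport and reduction tested, 0 were higher and 1 lower past the threshold without replicate 3, and their median log2 ratio was 0.43, beside 0.01 over all transcripts tested. With all arrays 1 was higher and 0 lower, with a median of 0.42. Over all transcripts tested, 0.466% passed without replicate 3 and 0.638% with all arrays. Of the 6 members by RefSeq name, 1 passed without replicate 3 and 0 with all arrays. Nitrate reductase NR1 (0.25, SE 0.32), nitrite reductase (0.43, SE 0.47) and the NRT2 partner protein NAR2.1 (0.47, SE 1.23) did not pass, nor did they with all arrays (0.42, 0.20 and 0.47).

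Transcripts of ammonium uptake and assimilation other than asparagine synthetase 2 did not pass the threshold. The AMT-type ammonium transporter GRMZM2G043193_T01 had levels of -0.58, -1.87 and -1.56 at Lo5 1 d, against -0.85, -1.09 and -2.31 at Lo5 0 d, overlapping groups with a log2 ratio of 0.08 (SE 0.75) with all arrays and 0.19 (SE 0.86) without replicate 3. The plastid glutamine synthetase transcript GRMZM2G098290_T01 was not well above background on any of the 6 arrays and could not be tested. The glutamine synthetases that were tested without replicate 3 had log2 ratios between -0.50 (gs1-3) and 0.18 (gln3), and between -1.34 and 0.32 with all arrays, none past the threshold. Of 11 transcripts of the list, 1 was lower and 0 higher past it, with a median log2 ratio of -0.15, as were 1 and 0 of 12 with all arrays. Over all transcripts tested, 0.466% passed without replicate 3 and 0.638% with all arrays. Among members by RefSeq name, 0 of 9 passed without replicate 3 and 0 of 10 with all arrays.

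The regulators followed in the study in connection with nitrate did not pass the threshold in Lo5 at 1 d. LBD37 (GRMZM2G017319_T01), whose Arabidopsis counterpart holds back N-response genes, had levels of -6.32, -1.85 and -3.27 at Lo5 1 d, against -2.43, -1.55 and -2.35 at Lo5 0 d. One array decided the mean: replicate 1 was low and dim, and the log2 ratio of -1.70 (SE 1.09) became -0.45 without it, -2.68 without replicate 2 and -1.98 (SE 1.25) without replicate 3. The related LBD38 transcript (GRMZM2G177110_T01) had a log2 ratio of 0.05 (SE 0.43) with all arrays and 0.23 (SE 0.49) without replicate 3, which took the other sign in several settings. The TCP family factor AC234521.1_FGT006 had -0.50 (SE 0.33) with all arrays and -0.17 (SE 0.31) without the doubtful array, and the second TCP factor, GRMZM2G120151_T01, was, of the 6 arrays, well above background on that one only and was not tested.

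**Figure D3:**
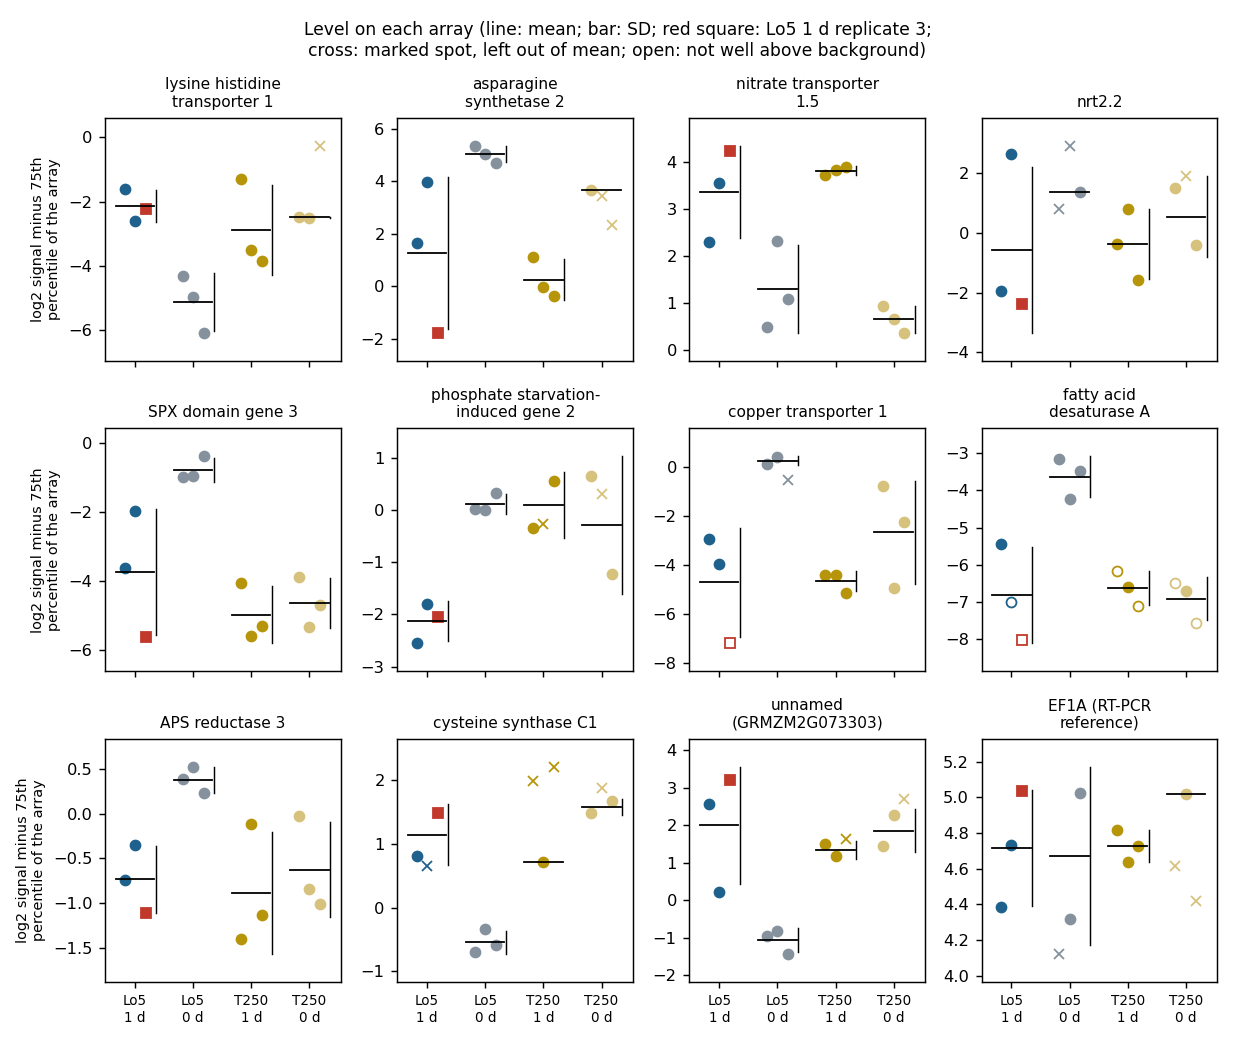
Levels of 12 named transcripts (vertical axes: log2 signal minus the 75th percentile of the array; each panel has its own scale) on the arrays of Lo5 1 d, Lo5 0 d, T250 1 d and T250 0 d, with the mean (line) and SD (bar) of the unmarked spots. In Lo5, lysine histidine transporter 1 was higher at 1 d on every array than on any 0 d array, and asparagine synthetase 2, SPX domain gene 3 and phosphate starvation-induced gene 2 were lower.

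Of the genes tied to phosphate, SPX domain gene 3 and phosphate starvation-induced gene 2 were lower at 1 d both ways. SPX domain gene 3 (GRMZM5G828488_T01) had levels of -3.62, -1.97 and -5.64 at Lo5 1 d, against -0.98, -0.95 and -0.37 at Lo5 0 d. The groups did not overlap, and the lowest spot was again that of the array labelled Lo5 1 d replicate 3, beside levels of -5.61 to -3.89 on the T250 arrays of 0 and 1 d. The log2 ratio was -2.97 (SE 0.71, limma, adjusted p = 0.934) with all arrays and -2.02 (SE 0.59, adjusted p = 1.00) without it. The call with all arrays ended in a fit on the 2 groups alone and after normexp (-1.09). T250 gave -0.35 (SE 0.52), and the Lo5 difference minus the T250 difference was -1.68 (SE 0.79, adjusted p = 1.00). Phosphate starvation-induced gene 2 (GRMZM5G836174_T01) had levels of -2.55, -1.81 and -2.05 at Lo5 1 d, against 0.02, -0.01 and 0.32 at Lo5 0 d and the groups lay well apart. Its log2 ratio was -2.25 (SE 0.45, limma, adjusted p = 0.552) with all arrays and -2.29 (SE 0.52, adjusted p = 1.00) without replicate 3, and normexp (-1.29) ended the call. T250 had a ratio of 0.39 (SE 0.57), and the Lo5 difference minus the T250 difference was -2.69 (SE 0.77, adjusted p = 1.00).

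The rest of the phosphate list did not follow them. Of 13 transcripts tested without replicate 3, 0 were higher and 2 lower past the threshold, and the median log2 ratio was 0.14, beside 0 higher, 3 lower and a median of 0.16 with all arrays. Over all transcripts tested, 0.466% passed without replicate 3 and 0.638% with all arrays. Of the 6 members by RefSeq name, 0 passed without replicate 3 and 1 with all arrays. The other members were listed by the study's own descriptions of transcripts that it had called on these arrays. The phosphate transporter pht2 was lower past the threshold with all arrays (-1.30, SE 0.35) and not without replicate 3 (-1.11, SE 0.38). The transporter pht6 had the highest ratio of the list without replicate 3, 2.44 (SE 0.97), but 1.19 (SE 1.07) with all arrays, where the phosphate transporter GRMZM2G009045_T01 was highest (1.44, SE 1.31, and 0.19 without replicate 3). The 3 transcripts named purple acid phosphatase 3 had 1.00 to 1.15 without replicate 3 and 0.44 to 0.45 with all arrays, and none of these passed the threshold. SPX domain gene 1 (-0.14, SE 0.31) and the starvation regulator PHR1 (0.11, SE 0.22) did not pass either, nor did they with all arrays (-0.49, SE 0.33, and 0.02, SE 0.20).

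In the sulfate route, the transcripts singled out were APS reductase, which reduces activated sulfate, and a transcript named cysteine synthase C1, whose Arabidopsis namesake makes β-cyanoalanine from cysteine and cyanide. APS reductase (AC189750.4_FGT004) had levels of -0.74, -0.36 and -1.11 at Lo5 1 d, against 0.38, 0.52 and 0.23 at Lo5 0 d. All 1 d arrays lay below all 0 d arrays, and the log2 ratio was -1.11 (SE 0.51, limma, adjusted p = 0.968) with all arrays and -0.93 (SE 0.57, adjusted p = 1.00) without replicate 3. Of the tests run it passed only the methods' own, with all arrays and before adjustment, as its unadjusted limma p was above the threshold. Cysteine synthase C1 (GRMZM2G036708_T01) had levels of 0.81, 0.65 and 1.48 at Lo5 1 d, the second of them marked, against -0.70, -0.34 and -0.59 at Lo5 0 d. Its log2 ratio of 1.69 (SE 0.41, limma, adjusted p = 0.968) was past the methods' threshold with all arrays, and that of 1.35 (SE 0.51) without replicate 3, from 1 spot at 1 d, was not. With the replicate number as a block the ratio was 1.64 and the call was lost, as it was after normexp (1.37). Of 7 transcripts of sulfate transport and assimilation tested without replicate 3, none passed the threshold, and their median log2 ratio was 0.31, beside 1 higher of 8 and a median of 0.08 with all arrays. Over all transcripts tested, 0.466% passed without replicate 3 and 0.638% with all arrays. Of the 5 members by RefSeq name tested with all arrays, 0 passed.

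A gene of copper uptake and one of lipid metabolism were among the largest decreases with a name. Copper transporter 1 (GRMZM2G042412_T01), a carrier of copper into cells, had levels of -2.95, -3.96 and -7.18 at Lo5 1 d, against 0.13, 0.38 and -0.55 at Lo5 0 d, the last of which was marked. Replicate 3 at 1 d was not well above background, and all 1 d spots lay below all 0 d spots. The log2 ratio was -4.95 (SE 1.22, limma, adjusted p = 0.968) with all arrays and -3.71 (SE 1.09, adjusted p = 1.00) without replicate 3, and omitting Lo5 0 d replicate 2 (-4.82) or correcting by normexp (-2.53) ended the call. T250 had a ratio of -1.99 (SE 0.89), and the Lo5 difference minus the T250 difference was -1.72 (SE 1.41). Fatty acid desaturase A (GRMZM2G097509_T01), an enzyme that puts a double bond into fatty acids, had levels of -5.45, -6.99 and -8.01 at Lo5 1 d, against -3.17, -4.24 and -3.49 at Lo5 0 d. Replicates 2 and 3 at 1 d were not well above background, and the groups did not overlap. The ratio was -3.18 (SE 0.56, limma, adjusted p = 0.265) with all arrays and -2.59 (SE 0.53, adjusted p = 1.00) without replicate 3, but 0.0021 after normexp correction. Fatty acid desaturase A was not tested in T250, where neither the 1 d nor the 0 d group was well above background on all its arrays.

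The largest differences had mostly no gene name. Of the 59 transcripts, 9 had a RefSeq name, 16 a description in the study's tables and 38 neither. GRMZM5G841684_T01, without a name, had levels of -2.57, -1.15 and -2.70 at Lo5 1 d, against 1.19, 1.92 and 0.51 at Lo5 0 d, and stayed past the threshold in all 17 alternative settings (-3.35, SE 0.60, limma, adjusted p = 0.295, with all arrays and -3.07, SE 0.67, without replicate 3). GRMZM2G073303_T01, also unnamed, had levels of 2.56, 0.23 and 3.20 at Lo5 1 d, against -0.95, -0.81 and -1.43 at Lo5 0 d. It lost its call in 1 alternative setting, the methods' own test, and its log2 ratio was 3.06 (SE 0.59, limma, adjusted p = 0.546) with all arrays and 2.46 (SE 0.55) without replicate 3. For both transcripts the alternative settings started from all arrays, and only the omission of replicate 3 left that array out.

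Further transcripts among the 8 largest increases without replicate 3 were GRMZM2G023811_T01 (log2 ratio 3.27), GRMZM2G438840_T01 (2.97), GRMZM5G840145_T01 (2.88), GRMZM2G117564_T01 (2.69), GRMZM2G320287_T01 (2.20) and the α/β-hydrolase GRMZM2G015692_T01 (2.12). With all arrays the 6 ratios lay between 2.11 and 3.21. Replicate 2 carried little of several of these: within slides, GRMZM2G023811_T01 differed by 5.27, 0.55 and 3.80, GRMZM5G840145_T01 by 4.64, 0.23 and 4.43 and GRMZM2G117564_T01 by 4.39, 0.23 and 3.36. With all arrays, omitting Lo5 1 d replicate 1 ended the calls of GRMZM2G023811_T01 (2.18), GRMZM2G438840_T01 (3.11), GRMZM2G117564_T01 (2.08) and GRMZM2G320287_T01 (1.75). GRMZM2G438840_T01 also lost its call without Lo5 1 d replicate 2 (2.82), and each of 4 of these transcripts lost it without some 0 d array: GRMZM2G023811_T01 without replicates 1 (3.20) and 3 (2.85), GRMZM2G438840_T01 without replicates 1 (3.35) and 2 (2.58), GRMZM5G840145_T01 without replicates 1 (2.68) and 3 (2.65) and GRMZM2G320287_T01 without replicates 2 (1.84) and 3 (2.11).

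Further transcripts among the 8 largest decreases were AC186231.4_FGT002 (log2 ratio -3.03 without replicate 3), GRMZM2G353076_T01 (-2.44), GRMZM2G433450_T01 (-2.39) and GRMZM2G338160_T01 (-2.26), none with a name. With all arrays they were -2.66, -2.73, -2.13 and -3.27 in this order. Some were dim at 1 d, as GRMZM2G433450_T01 was on replicate 1 and GRMZM2G338160_T01 on replicates 1 and 3. GRMZM2G353076_T01, GRMZM2G433450_T01 and GRMZM2G338160_T01 were not tested in T250, where neither the 1 d nor the 0 d group was well above background on all its arrays. GRMZM2G353076_T01 was not well above background on any 1 d array, so its decrease was at least 1.94-fold with all arrays and at least 1.90-fold without replicate 3, the mean at 0 d being set against the lowest signal that was well above background on each 1 d array. AC186231.4_FGT002 lost its call with all arrays when any array but Lo5 1 d replicate 3 was omitted, with log2 ratios of -2.66, -2.78 and -2.55 without Lo5 0 d replicates 1, 2 and 3, and of -2.63 and -2.33 without Lo5 1 d replicates 1 and 2. GRMZM2G433450_T01 lost its call without Lo5 1 d replicate 1 (-1.31) and without Lo5 0 d replicate 1 (-2.24), 2 (-1.82) or 3 (-2.34). Normexp correction ended the calls of all 4 and gave GRMZM2G353076_T01 (0.41) and GRMZM2G433450_T01 (0.24) the other sign.

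Smaller changes among the 59 that carry a name were mixed in kind. Higher at 1 d were an aluminium-activated malate transporter (GRMZM2G094860_T01, log2 ratio 1.44 without replicate 3), a channel family that releases malate from cells, the transcript named fae1 (GRMZM2G022558_T01, 1.38), and the bHLH factor Opaque11 (GRMZM2G147685_T01, 1.90), known from maize endosperm. Lower were a calmodulin-binding protein (GRMZM2G318843_T01, -2.06), the AP2/ERF factor EREB202 (GRMZM2G148333_T01, -1.79), the transcript named acyl-activating enzyme 7 (GRMZM2G152417_T01, -1.67), a GDSL lipase (GRMZM2G090652_T01, -1.66), the homeobox gene lg4a (GRMZM2G094241_T01, -1.35) and NAC domain containing protein 47 (GRMZM2G430849_T01, -1.04). With all arrays the 3 increases were 1.61, 1.53 and 2.42 and the 6 decreases -2.14, -1.69, -1.66, -1.88, -1.05 and -1.04, in the order named. Of the 59, 17 were dim, that is not well above background, on 1 or more of the 6 arrays. Opaque11 averaged only -7.05 at Lo5 0 d. With all arrays EREB202 averaged -6.26 and the GDSL lipase -6.46 at Lo5 1 d. The sizes of the ratios of these dim transcripts are therefore uncertain. These names were picked from the 59 after their values were seen.

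Of the 59 transcripts, 50 were tested between T250 1 d and T250 0 d. The T250 arrays are not in the Lo5 ratio but share in the spread that decided which transcripts were among the 59, so their calls are not independent of that choice. The 59 also had to pass, in the same direction, with the array labelled Lo5 1 d replicate 3, which lay among the T250 arrays on the scale of the lines. The shares over all transcripts given below were not chosen in this way, so the 2 are not alike. In T250, 37 of the 50 (74.0%) had the same sign as in Lo5, beside 49.8% of the 25162 transcripts tested in both lines without replicate 3, which is a description and was not tested. T250 1 d replicates 2 and 3 lay at 0.146 and 0.102 on the scale of the lines, the highest of the 9 T250 arrays (the other 7 lay between -0.0327 and 0.0521), and every T250 ratio given here rests in part on them. Their part in these values was not tested. With replicate 3 left out of the shared fit, 6 of the 50 passed the methods' threshold in T250 in the same direction and 0 in the other, beside 1.76% of all 27713 transcripts tested in T250. They were GRMZM2G053493_T01 (4.05 in T250), the malate transporter GRMZM2G094860_T01 (2.80), the α/β-hydrolase GRMZM2G015692_T01 (1.83), GRMZM2G136088_T01 (-1.05), GRMZM5G841684_T01 (-1.91) and asparagine synthetase 2 (-3.43, on 1 unmarked T250 0 d spot). With replicate 3 in the fit, where it adds to the spread shared by all groups, 4 passed, beside 1.23% of all transcripts, and asparagine synthetase 2 and GRMZM2G136088_T01 did not.

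The transcript lists, 27 groups with 742 transcripts on the array, held few calls. With all arrays 3 of the 555 tested members were higher and 11 lower past the methods' threshold (2.52%), and without replicate 3, 2 of 550 were higher and 9 lower (2.00%). Membership came from RefSeq names for 619 transcripts and from the study's own descriptions for 123, and the study described transcripts that it had called on these same arrays, so the second group is not independent of the result. Among members by RefSeq name, 5 of 454 passed with all arrays and 4 of 449 without replicate 3 (0.891%), beside 0.466% of all transcripts tested. Among members by description, 9 of 101 and 7 of 101 passed. The members past the threshold both ways numbered 7, of which 6 came from descriptions.

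Some lists leaned one way without a call. Of the 4 benzoxazinoid enzymes tested, which make the defence compounds of maize seedlings, bx2 (log2 ratio -3.85, SE 1.79), BX4 (-1.69, SE 0.86) and BX3 (-1.68, SE 0.92) had negative and bx9 (0.24, SE 0.26) a positive ratio without replicate 3, and with all arrays they had -3.10, -1.12, -1.68 and 0.24. Of 23 transcripts of phenylpropanoid and lignin synthesis, 7 had a ratio above 0 and the median was -0.52, with the laccases lac5 (-1.31, SE 0.66) and lac4 (GRMZM2G164467_T01, -1.27, SE 0.64) at the low end (median -0.37, lac5 -1.31 and lac4 -0.98 with all arrays). Of 38 transcripts of jasmonate synthesis and TIFY proteins, repressors in jasmonate signalling, 12 were above 0, with a median of -0.26 (11 and -0.38 with all arrays). No member of these 3 lists passed the threshold without replicate 3, and over all transcripts 50.9% were above 0 (43.9% with all arrays). These lists were not alone. Without replicate 3, 12 of 36 bHLH, 13 of 37 AP2/ERF and 9 of 26 NAC factors were above 0. Calcium signalling (18 of 27) and seed reserves (11 of 16) lay the other way. With all arrays, 7 of 36 bHLH, 12 of 37 AP2/ERF and 10 of 27 NAC factors were above 0. Calcium signalling then had 19 of 29 above 0, while seed reserves had 7 of 16 (43.75%), near the share over all transcripts. The potassium transporter HAK13 (-2.42, SE 1.11) and the potassium channel ZMK1 (0.96, SE 0.33) had the lowest and highest ratio of 20 potassium transporters and channels, whose median was -0.19. With all arrays they had -2.31 and 0.65, HAK15 was highest (0.79) and the median was -0.24. Aquaporins (median -0.14 over 20, 0.13 over 21 with all arrays) and ribosomal proteins (0.02 over 31, 0.17 over 32 with all arrays) had medians near 0. With all arrays the lists' medians lay between -1.40 (benzoxazinoid enzymes) and 0.42 (nitrate transport and reduction), beside -0.06 over all transcripts tested.

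**Figure D4:**
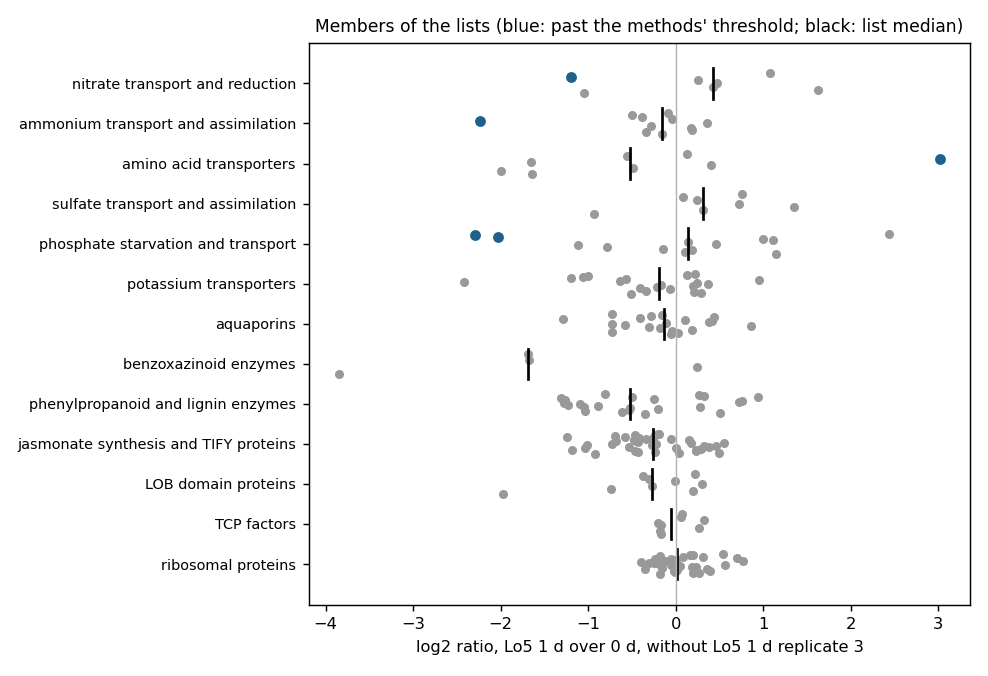
Log2 ratio of Lo5 1 d over Lo5 0 d without replicate 3 (horizontal axis) for every tested member of 13 of the lists (rows), with members past the methods' threshold in blue and the list median as a black bar. The blue points are 1 amino acid transporter above 0, and 1 transcript of nitrate transport, 1 of ammonium assimilation and 2 of the phosphate list below 0.

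Some calls in other lists depended on replicate 3, while those of the calmodulin-binding protein and EREB202 did not. The replicate 3 spot of NAC domain containing protein 47 was marked and entered neither fit, so its call could not depend on it. When marked spots were kept, with all arrays, 0 of 29 NAC factors passed the threshold in either direction. The xyloglucan endotransglucosylase XTH32 (GRMZM2G388684_T01), an enzyme that loosens cell walls, had a log2 ratio of -1.73 (SE 0.37) without replicate 3 and 0.13 (SE 1.03) with it. The AP2 factor gl15 (GRMZM2G160730_T01), which keeps maize leaves juvenile, had -2.30 (SE 0.77) without it and -1.43 (SE 0.81) with it. The chalcone synthase whp1 (GRMZM2G151227_T01), first enzyme of the flavonoid route, was past the threshold with all arrays only (-3.03, SE 0.99, and -2.35, SE 1.02, without replicate 3), as were the lipoxygenase lox6 (GRMZM2G040095_T01, -1.27, SE 0.41, and -1.18, SE 0.47) and expansin B2 (GRMZM2G082520_T01, -1.26, SE 0.39, and -0.97, SE 0.42).

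Whether Lo5 changed otherwise than T250 was tested as the Lo5 difference minus the T250 difference. Of 29045 transcripts tested with all arrays, 5 passed an adjusted p of 0.05 (0.0172%), 3 with a positive and 2 with a negative value. Without replicate 3, 5 of 28938 passed (0.0173%), all positive, and 3 transcripts passed both ways. With the replicate number as a block, 2 passed with all arrays and 3 without that array. In the 5 positive calls without replicate 3, most of the value came from T250 arrays. For example, GRMZM2G435445_T01 had levels of 0.73 and -0.11 on Lo5 1 d replicates 1 and 2, against 0.72, 0.11 and -0.29 at Lo5 0 d, while T250 had 2.07 (marked), -2.52 and -2.95 at 1 d, against 2.20, 1.85 (marked) and 2.38 at 0 d. The low T250 values were those of 1 d replicates 2 and 3, the arrays that lay highest of the T250 arrays on the scale of the lines. Without Lo5 1 d replicate 3, leaving out 1 more array of either line, these T250 arrays included, gave 3 to 192 calls. Over 21 alternative settings, these omissions among them, the value of GRMZM2G435445_T01 was 3.40 to 5.57. The cause of the low T250 values was not tested. Without replicate 3, leaving out T250 1 d replicate 1 as well gave 192 calls and leaving out T250 0 d replicate 1 gave 184. When marked spots were kept, 0 transcripts passed either way.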

How the data were processed

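Deposited per-array intensity files were used, which the authors made with Agilent Feature Extraction 10.5.1.1, as the submitters' processing notes and the study's methods state (background-corrected processed signal, 1 dye, not normalized between arrays). Control spots were left out. The log2 of the processed signal minus the 75th percentile of each array was taken, as in the study's methods; the authors' deposited value table held the same intensity values up to 1 factor per array. Spots that the scanner software had marked for uneven signal or as outliers were set missing, and probes well above background on all arrays used of either group were tested. The fit was limma 3.58.1 (R 4.3.3) over the 6 groups with Benjamini-Hochberg adjustment, with and without Lo5 1 d replicate 3.

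The replicates came from independent growth experiments, and the deviations of same-numbered samples from their group means correlated at 0.488, 0.168 and 0.256 in Lo5 (15175 probes). Samples of unlike number correlated at -0.456 to 0.174, the highest being 1 d replicate 2 with 0 d replicate 3. The pairing by number was thus not clear for replicate 2. The 1 d mean included the array labelled replicate 3, and the main fit did not use the pairing. For Lo5 at 1 d and 0 d the number also marks the slide.

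Names came from RefSeq gene symbols (18726 of 39372 transcripts matched a gene of Zm-B73-REFERENCE-NAM-5.0, 6422 with a name) and from the study's descriptions (899 transcripts). Transcripts were named if past the adjusted threshold; if among the 8 largest increases or decreases without replicate 3 that passed both ways with spots that did not overlap; if discussed in the study for N, nitrate signalling or sulfate; if members of the N, sulfate, phosphate or amino acid lists past the threshold both ways; or if a reference for RT-PCR. Others are named as examples of a list or of the 59. The samples, lists and named transcripts were chosen with earlier results of these data known. Alternatives tried were the 2 groups alone, the methods' t-test, replicate or slide as a block, quantile normalization, other filters, marked spots kept, the authors' value table, normexp (offset 50, on median signals) and each array left out. The fits were tested on simulated data. The number of arrays limits the precision.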

Additional observations from a re-analysis of the deposited data

Results flagged for a closer look

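Differences between the lines in the change at 1 d (Lo5 difference minus T250 difference, limma, adjusted p of at most 0.05) were looked at again one by one. With all arrays they were GRMZM2G417485_T01 (log2 value 10.38), GRMZM2G001332_T01 (7.71), GRMZM2G435445_T01 (5.72), GRMZM2G014716_T01 (-7.35) and GRMZM2G177384_T01 (-11.05). When replicate 3 of Lo5 1 d was left out they were GRMZM2G417485_T01 (10.40), GRMZM2G001332_T01 (6.96), GRMZM2G435445_T01 (5.15), GRMZM2G370715_T01 (10.91) and GRMZM2G125345_T01 (7.65). GRMZM2G417485_T01 was not well above background on any Lo5 array of 0 or 1 d, and its value set 1 unmarked T250 1 d spot at -8.85 against 1 unmarked T250 0 d spot at 1.47, while the marked T250 1 d spots were both at 2.25. GRMZM2G125345_T01 had 1 unmarked T250 1 d spot, at -6.18, beside marked ones at 1.77 and 1.63. GRMZM2G370715_T01 had T250 1 d levels of 1.83 (marked), -8.69 and -7.85, against 2.02 (marked), 2.33 (marked) and 2.59 at T250 0 d, and the array labelled Lo5 1 d replicate 3 was at 1.84, beside -7.07 and -9.08 on the other Lo5 1 d arrays. GRMZM2G001332_T01 had T250 1 d levels of 2.42 (marked), -4.50 and -4.72, against 2.09, 0.34 and 1.08 (marked) at T250 0 d. In the negative calls, GRMZM2G014716_T01 and GRMZM2G177384_T01, the difference came from the array labelled Lo5 1 d replicate 3.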

How the results depend on the processing

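The count past the methods' threshold of 179 with all arrays became 70 with limma on the 2 groups only and 27 with the methods' t-test, and leaving out 1 array gave 118 to 867. The 130 without Lo5 1 d replicate 3 became 24 with the methods' t-test and 63 after normexp, and leaving out 1 more array gave 113 to 765. The 3 adjusted calls became 0 with the 2 groups only, with the methods' t-test, with the slide as a block, with marked spots kept, after normexp and with at least 2 unmarked spots in each group (an alternative chosen after seeing the data), 1 with the replicate number as a block and with the stricter background filter, and 5 with quantile normalization; leaving out 1 array gave 0 to 45, and without replicate 3 the 0 became 0 to 96 when 1 more array was left out (96 without Lo5 1 d replicate 2). The 5 line differences with all arrays became 0 with the 4 groups only, the slide block, marked spots kept, normexp and at least 2 unmarked spots, 2 with the replicate block and 3 with the stricter filter, and 1 to 148 when 1 array was left out (148 without T250 1 d replicate 1, 96 without T250 0 d replicate 1, 20 and 16 without Lo5 1 d replicates 1 and 2). The 5 without replicate 3 became 0 under the first 4 of these, 2 with at least 2 unmarked spots, 3 with the replicate block, 2 with the stricter filter, and 3 to 192 when 1 more array was left out. The replicate block changed no other count by over 1.5 times. After normexp, fatty acid desaturase A (0.0021), GRMZM2G353076_T01 (0.41), GRMZM2G433450_T01 (0.24), LBD37 (0.18), LBD38 (-0.18), the TCP factor AC234521.1_FGT006 (0.46) and EF1A (-0.21) took the other sign. So did the ammonium transporter GRMZM2G043193_T01 without Lo5 0 d replicate 3 (-0.37) or Lo5 1 d replicate 1 (-0.30; highest 0.36, without Lo5 0 d replicate 1), LBD38 without Lo5 0 d replicate 2 (-0.13) or 3 (-0.05) or Lo5 1 d replicate 1 (-0.48), and EF1A without Lo5 0 d replicate 2 (-0.31) or Lo5 1 d replicate 3 (-0.11; highest 0.40, without Lo5 0 d replicate 3). The cause was not tested. Of the 59 transcripts past the threshold both ways, 21 with all arrays and 22 without replicate 3 still passed in the 2 groups only, 9 and 5 with the methods' t-test, 15 and 9 after normexp and 48 and 37 with the slide block; leaving out 1 more array left 28 to 52 and 7 to 46, the lowest without Lo5 1 d replicate 1. The alternatives not named here for a count kept it within 1.5 times. The 27 lists' 14 calls were 11 to 15.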
